A study of Mus musculus with 24 samples.

Results

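The genes described here are 9 that control glycolysis and glycogen in the liver: Slc2a2, Gckr, Pfkfb1, Pfkl, Pklr, Ugp2, Gys2, Ppp1r3b and Pygl. They were chosen by name, as the rows of the liver count table whose gene symbol equals one of the 9. All 9 had a row among 22355 genes, and all 9 passed the filter on low counts that left 11508 genes. They are followed over 3 groups of diet-induced obese mice, 8 mice in each. One group was given IUB288, a glucagon receptor agonist known here by its code name, for 4 d and killed 22 h after the last injection. Another had the same 4 d of IUB288 and was sampled 4 h after the last injection. The vehicle group was injected for 4 d and sampled at 22 h only. So IUB288 and vehicle were set side by side at equal hours at 22 h, while at 4 h the agent and the hours since injection cannot be told apart. Strain, sex, age, diet and dose are not stated in the sources used here, and the labels number the 8 libraries of a group as replicates.

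Hepatocytes take up glucose through a transporter that works in both directions, trap it as glucose 6-phosphate and send it either down glycolysis to pyruvate or into glycogen. Glucagon acts on its receptor in hepatocytes through cyclic AMP and protein kinase A, which shut off glycolysis and glycogen synthesis and turn on glycogen breakdown, largely by phosphorylating enzymes that are already present. The counts here measure RNA only, not enzyme phosphorylation, flux or glycogen.

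Library totals ran from 13.99 to 44.07 M counts, and the member with the fewest counts in a library had 429, so counting error is small beside the spread between mice. Values are CPM, the count as a share of each library's TMM-scaled total. Hepatocyte markers summed to 78741 to 103600 CPM at 22 h, 82264 to 108760 CPM at 4 h and 78621 to 124070 CPM in vehicle livers. The lowest vehicle sum belonged to vehicle replicate 1. That library also held 4556 CPM summed over 11 fat markers, against 69.1 to 113 CPM in the other 7 vehicle livers, and 227 CPM over 10 muscle markers, against at most 0.901 CPM in the other 7. Fat marker sums were 27.2 to 143 CPM at 22 h and 106 to 162 CPM at 4 h. Log2 changes of the 9 genes against vehicle are therefore also given without it. Among the other pathway genes given with log2 changes, leaving it out ended 1 call, that of Nhlrc1 at 22 h. It moved by over 1.5 times only the values of Pdk4. Pkm and Hk2, given below as CPM only, also moved by over 1.5 times at 4 h. Their log2 changes at 4 h went from -0.76 to -0.18 and from -1.21 to -0.74. At 22 h that of Pkm also moved by over 1.5 times, from -1.24 to -0.66. Many markers of cell types other than hepatocytes were lower than vehicle at 22 h, where 19.2% of all genes tested were lower. They were 10 of 11 stellate cell and fibroblast markers, 9 of 9 endothelial markers and 6 of 9 Kupffer cell markers. Also lower were 5 of 10 T, NK and B cell markers and 2 of 7 cholangiocyte markers. Of 5 erythroid markers, 4 were lower and 1 higher. At 4 h the lower counts were 6 of 11, 3 of 9, 3 of 9, 3 of 10 and 3 of 7 in the same order. Again 4 of 5 erythroid markers were lower and 1 higher, and 22.5% of all genes tested were lower. In bulk liver, fewer cells of a type and less RNA per cell cannot be told apart, and the part of these markers in the results for the 9 genes was not tested.

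Against vehicle, the 9 genes moved in both directions, and the widest called fold was 2.06, the fall of Pfkfb1 at 4 h. At 22 h, 2 members rose (Ugp2 and Gckr), 4 fell (Ppp1r3b, Slc2a2, Pfkfb1 and Pklr) and 3 were not called (Pfkl, Gys2 and Pygl), by limma-voom with Benjamini-Hochberg adjustment over all genes tested and a threshold of 0.05. At 4 h, 2 rose (Ugp2 and Gckr), 3 fell (Pfkfb1, Ppp1r3b and Slc2a2) and 4 were not called. Over all genes tested, 36.8% were called at 22 h, with 17.6% higher and 19.2% lower, and 44.2% at 4 h, with 21.7% higher and 22.5% lower. Called members were 6 of 9 at 22 h and 5 of 9 at 4 h, which differ from those shares by few genes. The members were chosen with earlier results of these data known, so no result about them is drawn from these shares. The members' median log2 fold change was -0.42 at 22 h and -0.32 at 4 h, beside -0.02 and -0.07 over all genes tested. Without vehicle replicate 1 the medians were -0.12 and -0.06, and 6 members were called in each comparison, since Pklr also fell at 4 h. Between 22 h and 4 h, 1 member was higher at 22 h (Pfkfb1), 1 lower (Ugp2) and 7 not called, where 29.3% of all genes were called, 14.3% higher and 15% lower. Both comparisons with vehicle share the same 8 vehicle livers.

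**Figure D1:**
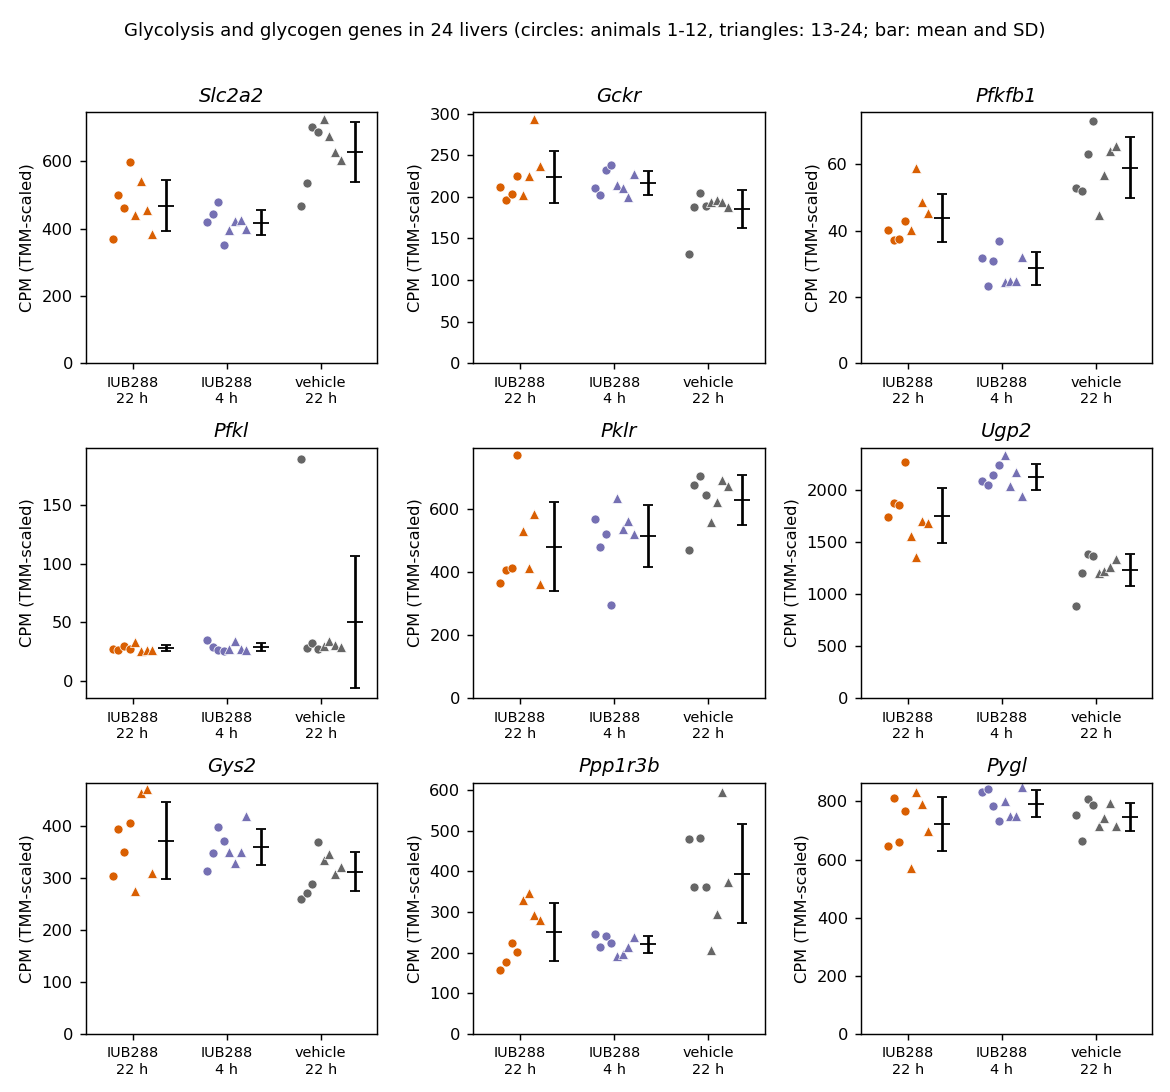
Scaled CPM (vertical axis, linear) of the 9 genes in each liver, with IUB288 at 22 h, IUB288 at 4 h and vehicle at 22 h from left to right. Circles are livers numbered 1 to 12 and triangles 13 to 24, and bars show mean and SD of 8 livers; the Pfkl bar of vehicle, 50.1 ± 56.2 CPM, is set by 1 liver at 189 CPM. Pfkfb1 is lowest and Ugp2 highest in the 4 h livers.

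Slc2a2 encodes GLUT2, the main glucose transporter of the hepatocyte surface. It spanned 368 to 597 CPM in 22 h livers (median 459), 352 to 478 CPM in 4 h livers (median 422) and 467 to 727 CPM in vehicle livers (median 653). The 4 h and vehicle groups overlapped only because vehicle replicate 1, at 467 CPM, lay below the highest 4 h liver. The other 7 vehicle livers held 536 CPM or more. Slc2a2 fell at both times, by 0.43 ± 0.10 on the log2 scale at 22 h (SE, 8 of 8 livers under the vehicle mean, limma-voom adjusted p = 0.00118) and by 0.59 ± 0.10 at 4 h (8 of 8 livers, adjusted p = 1.94e-05). As mean levels these were 469 ± 76.7 CPM at 22 h and 417 ± 37.1 CPM at 4 h, against 629 ± 89.4 CPM in vehicle livers (SD, n = 8 each). With vehicle replicate 1 left out the log2 changes were -0.49 at 22 h (limma-voom adjusted p = 0.000176) and -0.64 at 4 h (adjusted p = 2.13e-06). The 22 h livers lay 0.16 above the 4 h livers on the log2 scale, with a 95% interval of -0.04 to 0.35, which was not called (adjusted p = 0.236).

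Gckr encodes a hepatocyte regulatory protein that restrains glucose phosphorylation when glucose is low. Its values were 196 to 293 CPM at 22 h (median 218), 199.9 to 239 CPM at 4 h (median 212) and 132 to 204 CPM in vehicle livers (median 191). Apart from 1 vehicle liver at 132 CPM, replicate 1, the vehicle livers lay within 188 to 204 CPM, just under or among the lowest treated ones. Gckr rose by 0.27 ± 0.08 on the log2 scale at 22 h (limma-voom adjusted p = 0.0102) and by 0.23 ± 0.08 at 4 h (adjusted p = 0.0221), with all 8 treated livers above the vehicle mean each time. Without vehicle replicate 1 the log2 changes were 0.21 (adjusted p = 0.0155) and 0.17 (adjusted p = 0.0417).

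Pfkfb1 encodes the liver form of the bifunctional enzyme that makes and degrades fructose 2,6-bisphosphate, the activator of phosphofructokinase; protein kinase A turns it toward degradation. It was measured at 37.1 to 58.98 CPM at 22 h (median 41.5), 23.3 to 37.0 CPM at 4 h (median 27.8) and 44.7 to 73.1 CPM in vehicle livers (median 59.8). The 4 h livers lay under every vehicle liver and also, narrowly, under every 22 h liver. The 22 h and vehicle livers overlapped. Pfkfb1 fell by 1.04 ± 0.11 on the log2 scale at 4 h (8 of 8 livers, limma-voom adjusted p = 4.01e-08), to 28.6 ± 5.0 CPM against 58.98 ± 9.11 CPM in vehicle livers. At 22 h the fall was 0.42 ± 0.11 (7 of 8 livers, adjusted p = 0.00332), to 43.8 ± 7.3 CPM. With vehicle replicate 1 left out the log2 changes were -0.44 at 22 h (limma-voom adjusted p = 0.00309) and -1.06 at 4 h (adjusted p = 5.41e-08). The difference between the times was itself called: 22 h livers were 0.62 ± 0.11 higher than 4 h livers on the log2 scale (8 of 8 livers, limma-voom adjusted p = 0.000136). Among all genes tested, 16.1% had non-overlapping groups of 8 at 4 h against vehicle and 10.7% at 22 h against 4 h. Pfkfb1 and Ugp2 did so at 4 h, Pfkfb1 did so between the times, and no member did at 22 h against vehicle, where the share of all genes was 7.41%.

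Pfkl encodes the liver subunit of phosphofructokinase, the committed step of glycolysis. It was low in all groups, with 25.7 to 33.2 CPM at 22 h (median 26.7), 25.9 to 34.5 CPM at 4 h (median 27.5) and 27.1 to 189 CPM in vehicle livers (median 30.4). The value of 189 CPM was vehicle replicate 1, and the other 7 vehicle livers lay within 27.1 to 34.3 CPM, overlapping both treated groups. Pfkl was not called at 22 h (log2 change -0.50, 95% interval -1.07 to 0.08, limma-voom adjusted p = 0.171) or at 4 h (-0.44, interval -1.02 to 0.13, adjusted p = 0.204). Without that library the log2 changes were -0.12 (adjusted p = 0.232) and -0.06 (adjusted p = 0.522). In that library other glycolytic isoforms stood high too, with Pkm, the muscle-type pyruvate kinase, at 558 CPM against at most 35.8 CPM in the other 23, and Hk2, a hexokinase of muscle and fat, at 179 CPM against at most 29.8 CPM.

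Pklr encodes the pyruvate kinase of liver and red cells, which makes pyruvate in the last step of glycolysis. Its gene has a red cell start and, downstream, a liver start. The window of 250 bases before and 50 bases after the liver start holds the carbohydrate response element, the site through which the carbohydrate response factor ChREBP is known to act on this gene. It is printed from RefSeq on GRCm38.p6, chr3:89136373-89136672, plus strand, because it is the one match among the 12 windows of the members to that element, searched as CACGNG and CNCGTG with 5 bases between. Capitals mark the match, positions -170 to -154 from the start.
Pklr liver start: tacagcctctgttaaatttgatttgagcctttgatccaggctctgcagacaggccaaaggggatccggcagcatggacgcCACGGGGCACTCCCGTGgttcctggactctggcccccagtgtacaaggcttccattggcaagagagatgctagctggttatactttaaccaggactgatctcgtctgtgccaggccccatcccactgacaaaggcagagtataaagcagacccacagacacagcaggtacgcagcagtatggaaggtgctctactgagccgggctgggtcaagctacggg
Of 32851 mouse promoter windows of this length, 15 (0.0457%) hold the pattern on either strand. The other motifs searched on both strands were the cyclic AMP response element TGACGTCA (1.79% of windows) and its 5-letter core TGACG (20.8%), the E-box CACGTG (7.15%), a forkhead site GTAAACA (3.65%) and a sterol element TCACNCCAC (1.24%). The only further match in the members' windows was the core on the minus strand of Pygl, positions -44 to -40 from its start. Windows were found for 7 of the 9 members, all but Gys2 and Ppp1r3b. A match is a run of letters, not a measured binding site.

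Pklr reached 364 to 769.7 CPM at 22 h (median 413), 296 to 634 CPM at 4 h (median 528) and 470.3 to 704 CPM in vehicle livers (median 657). The groups overlapped widely, and the 22 h group held both very low livers and the highest of all 24. Pklr fell at 22 h by 0.43 ± 0.15 on the log2 scale (7 of 8 livers, limma-voom adjusted p = 0.0244), to 481 ± 141 CPM against 629 ± 79.3 CPM in vehicle livers. Leaving out 22 h replicate 1 (limma-voom adjusted p = 0.0523) or 22 h replicate 8 (adjusted p = 0.0537) ended the call. At 4 h, with 514 ± 99.3 CPM, the log2 change was -0.32 ± 0.15 and not called (7 of 8 livers, adjusted p = 0.0838). It was -0.37 and called without vehicle replicate 1 (adjusted p = 0.0433), and -0.20 and not called without 4 h replicate 4, the lowest 4 h liver (adjusted p = 0.212). Without vehicle replicate 1 the log2 change at 22 h was -0.48 (limma-voom adjusted p = 0.012). Exons of Hcn3, an ion channel gene on the opposite strand, share 711 bases with those of Pklr. The sources used here do not state a strand setting for the counting, so reads of this stretch cannot be told apart. Hcn3 was not called in any comparison and averaged 50.6 ± 22.3 CPM at 22 h and 41.9 ± 10.6 CPM at 4 h, against 47.2 ± 9.9 CPM in vehicle livers.

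Ugp2 encodes UDP-glucose pyrophosphorylase, which makes the UDP-glucose that glycogen synthase uses. It was measured at 1359.5 to 2265 CPM at 22 h (median 1719), 1941 to 2331.5 CPM at 4 h (median 2113.5) and 888 to 1385 CPM in vehicle livers (median 1242). Every 4 h liver lay above every vehicle liver, while at 22 h only the lowest liver fell within the vehicle range. Ugp2 rose by 0.79 ± 0.09 on the log2 scale at 4 h (8 of 8 livers, limma-voom adjusted p = 4.92e-08), a 1.73-fold rise to 2124 ± 123 CPM against 1232 ± 157 CPM in vehicle livers. The rise at 22 h was 0.50 ± 0.09 (8 of 8 livers, adjusted p = 7.84e-05), to 1754 ± 264 CPM. The 22 h livers were 0.29 ± 0.09 lower than the 4 h livers on the log2 scale (7 of 8 livers, limma-voom adjusted p = 0.0139). Without vehicle replicate 1, at 888 CPM the lowest vehicle liver, the log2 rises were 0.44 at 22 h (adjusted p = 6.06e-05) and 0.73 at 4 h (adjusted p = 1.6e-08).

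Gys2 encodes the liver glycogen synthase, which builds glycogen from UDP-glucose. It had 276 to 472 CPM at 22 h (median 372), 314 to 419.6 CPM at 4 h (median 350.0) and 260.5 to 370.4 CPM in vehicle livers (median 315). All 3 groups overlapped. The log2 differences from vehicle were 0.24 ± 0.10 at 22 h (95% interval 0.03 to 0.44, limma-voom adjusted p = 0.0683) and 0.21 ± 0.10 at 4 h (adjusted p = 0.0956), which passed neither time after adjustment. The 22 h difference was called when any 1 of 4 libraries was left out, with the lowest adjusted p, 0.0204, without 22 h replicate 5. Leaving out vehicle replicate 1 gave 0.20 at 22 h (limma-voom adjusted p = 0.124) and 0.17 at 4 h (adjusted p = 0.17).

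Ppp1r3b encodes G(L), the subunit that carries protein phosphatase 1 to liver glycogen and so activates glycogen synthase. Its values were 157 to 346 CPM at 22 h (median 252), 191 to 245 CPM at 4 h (median 218) and 206 to 595 CPM in vehicle livers (median 368). The vehicle livers were the most scattered of any group for the 9 genes but Pfkl, with a coefficient of variation of 30.8%. Only 1 of them, at 206 CPM, lay within the 4 h range. Ppp1r3b fell by 0.65 ± 0.17 on the log2 scale at 22 h (8 of 8 livers, limma-voom adjusted p = 0.00506) and by 0.79 ± 0.17 at 4 h (8 of 8 livers, adjusted p = 0.000603). Means were 251 ± 71.0 CPM at 22 h and 220.0 ± 20.4 CPM at 4 h, against 394 ± 121 CPM in vehicle livers (SD, n = 8 each). Leaving out vehicle replicate 1 gave log2 changes of -0.60 at 22 h (limma-voom adjusted p = 0.0103) and -0.74 at 4 h (adjusted p = 0.0014). The difference between the times was 0.14 on the log2 scale with a 95% interval of -0.21 to 0.50 and was not called (adjusted p = 0.578).

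Pygl encodes the liver glycogen phosphorylase, which releases glucose units from glycogen and is switched on by phosphorylation. It had 572 to 832 CPM at 22 h (median 731), 733 to 849 CPM at 4 h (median 793) and 665 to 807 CPM in vehicle livers (median 747). The groups overlapped and no comparison was called. The log2 difference from vehicle was -0.06 at 22 h (95% interval -0.20 to 0.08, limma-voom adjusted p = 0.516) and 0.08 at 4 h (interval -0.06 to 0.22, adjusted p = 0.326). Leaving out vehicle replicate 1 gave -0.06 (adjusted p = 0.552) and 0.09 (adjusted p = 0.331). The ratio of Gys2 to Pygl CPM was 0.513 ± 0.051 at 22 h and 0.455 ± 0.047 at 4 h, against 0.419 ± 0.052 in vehicle livers (SD, n = 8 each, description only).

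**Figure D2:**
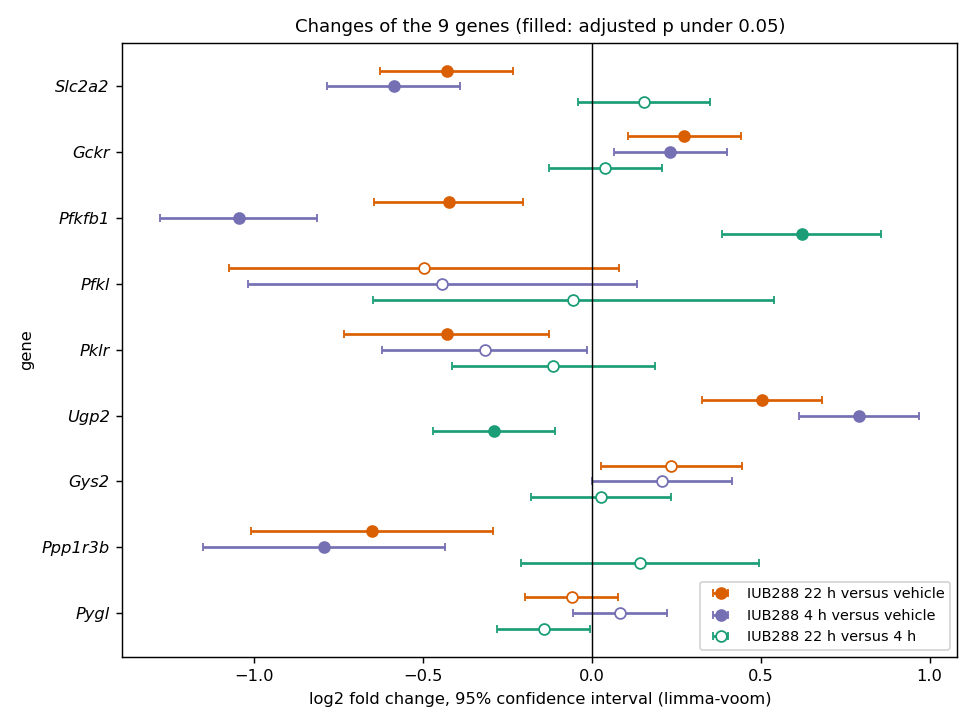
Log2 fold changes of the 9 genes with 95% confidence intervals from limma-voom (horizontal axis), for 22 h against vehicle, 4 h against vehicle and 22 h against 4 h from top to bottom within each gene; filled points have an adjusted p under 0.05. Ugp2 and Gckr lie right of 0 at both times, Slc2a2, Pfkfb1 and Ppp1r3b left of it, and Pfkfb1 and Ugp2 alone have filled points between the times.

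The library names carry running numbers from 1 to 24, and 4 livers of each group fall in 1 to 12 and 4 in 13 to 24. The labels do not say what the running number stands for. Vehicle replicate 1, the library with fat and muscle markers, has number 1, so it is 1 of the 4 vehicle livers within 1 to 12. The fits within 1 to 12 keep that library, and its part in them was not tested. Ppp1r3b at 22 h separated along these numbers: 157 to 224 CPM in the 4 livers numbered 1 to 12 and 280 to 346 CPM in the 4 numbered 13 to 24. The vehicle livers did not separate and were more scattered in the second set, with 361 to 482 CPM within 1 to 12 and 206 to 595 CPM within 13 to 24. Within 1 to 12 Ppp1r3b had a log2 change of -1.15 against vehicle at 22 h (limma-voom adjusted p = 0.000176), and within 13 to 24 one of -0.14 (adjusted p = 0.692). The difference between these changes was 0.99 ± 0.29 on the log2 scale, with an unadjusted p of 0.00224 in limma-voom and an adjusted p of 0.302 over all genes. It was set up after the split had been seen. At 4 h the Ppp1r3b changes were alike in size, -0.87 (adjusted p = 0.00037) and -0.73 (adjusted p = 0.0312). Pfkfb1 at 22 h was at -0.60 within 1 to 12 (limma-voom adjusted p = 0.0174) and at -0.23 within 13 to 24 (adjusted p = 0.253), and Ugp2 was at 0.68 (adjusted p = 0.00867) and 0.34 (adjusted p = 0.0122). Between 22 h and 4 h, Pfkfb1 differed by 0.39 within 1 to 12 (limma-voom adjusted p = 0.108) and by 0.89 within 13 to 24 (adjusted p = 0.00128), and Ugp2 by -0.13 (adjusted p = 0.668) and -0.41 (adjusted p = 0.00499). So neither difference between the times was called within livers 1 to 12. Slc2a2 kept its sign in every set of numbers, with log2 changes at 22 h of -0.32 within 1 to 12 (limma-voom adjusted p = 0.232) and -0.53 within 13 to 24 (adjusted p = 0.0025). At 4 h Slc2a2 had -0.51 (adjusted p = 0.039) and -0.68 (adjusted p = 0.000252), Pfkfb1 had -0.99 (adjusted p = 0.000366) and -1.11 (adjusted p = 0.000153), and Ugp2 had 0.81 (adjusted p = 0.00106) and 0.75 (adjusted p = 4.35e-05). Gckr was at 0.24 within 1 to 12 (adjusted p = 0.236) and 0.31 within 13 to 24 (adjusted p = 0.0304) at 22 h. At 4 h it was at 0.31 (adjusted p = 0.0935) and 0.13 (adjusted p = 0.33), so it was called in neither set there. Pklr at 22 h was near the same value in both, at -0.41 (adjusted p = 0.306) and -0.44 (adjusted p = 0.0308).

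**Figure D3:**
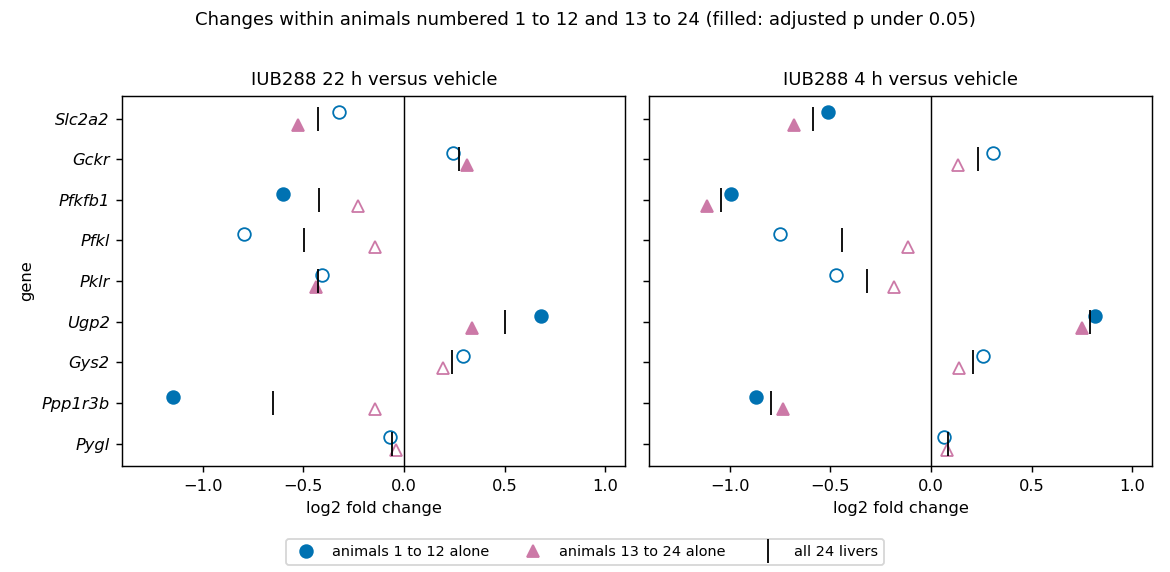
Log2 fold changes against vehicle (horizontal axis) of the 9 genes within livers numbered 1 to 12 (circles) and 13 to 24 (triangles), 4 livers a group in each, at 22 h on the left and 4 h on the right; vertical ticks are the values over all 24 livers and filled symbols have an adjusted p under 0.05. Ppp1r3b at 22 h shows the widest gap of the called genes, -1.15 against -0.14. Vehicle replicate 1 is among the livers numbered 1 to 12.

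Levels can be set side by side between genes only per length. Per kilobase of annotated exon, Ugp2 was far above the other members in every liver of every group, with a mean of 571 CPM per kb at 22 h and 692 at 4 h, against 402 in vehicle livers. In vehicle livers Pklr (194 CPM per kb) came next, above Gys2 (118) in 8 of 8 livers. Gys2, Slc2a2 (109) and Pygl (108) were not separated: Gys2 exceeded Slc2a2 in 6 of 8 livers, and Slc2a2 exceeded Pygl in 5 of 8. Ppp1r3b (63.4), Gckr (42.8), Pfkfb1 (14.7) and Pfkl (7.503) followed, each above the next in 7 or 8 of 8 livers. The order differed in IUB288 livers. At 22 h, Pklr (149) exceeded Gys2 (140.1) in only 3 of 8 livers, Pygl (105) stood above Slc2a2 (81.5) in 8 of 8, and Gckr (51.7) above Ppp1r3b (40.4) in 6 of 8. At 4 h, Pklr (159) exceeded Gys2 (135) in 7 of 8 livers, and Gckr (50.03) exceeded Ppp1r3b (35.4) in 8 of 8. Exon length was taken over all annotated transcripts, so a level per length is only as good as that length.

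**Figure D4:**
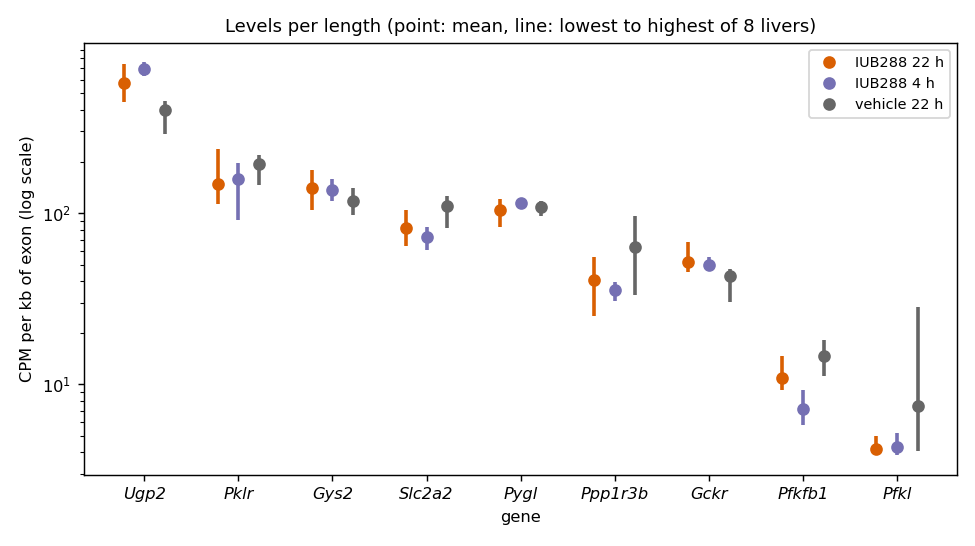
CPM per kb of exon (vertical axis, log scale) of the 9 genes, ordered by their vehicle mean, for IUB288 at 22 h, IUB288 at 4 h and vehicle at 22 h from left to right within each gene; points are means and lines run from the lowest to the highest of 8 livers. Ugp2 stands highest and Pfkl lowest, and the mean of 7.503 for Pfkl in vehicle livers reaches up to 28.3 through 1 liver.

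The loci, from GENCODE M21 on GRCm38, lie on 8 chromosomes, so the members share no cluster. They are Slc2a2 (chr3:28697903-28731359, plus strand), Gckr (chr5:31297443-31327314, plus), Pfkfb1 (chrX:150588229-150643878, plus), Pfkl (chr10:77986947-78010083, minus), Pklr (chr3:89136142-89146784, plus), Ugp2 (chr11:21321138-21371201, minus), Gys2 (chr6:142422613-142473109, minus), Ppp1r3b (chr8:35375739-35388139, plus) and Pygl (chr12:70190811-70231488, minus). Besides Pklr, Pfkfb1 shares 123 exon bases with Apex2 and Ugp2 shares 78 with Gm12043, both on the other strand and without a row in the table.

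Across the 24 livers, which share group differences and scaling, the genes whose log2 CPM followed a member most closely were sought among 6500 with a mean of at least 5 CPM, as a description. Pfkfb1 went most closely with Olfml1 (r = 0.91) and Nr1i3 (r = 0.90), the gene of the nuclear receptor CAR. Within groups these fell to 0.47 and 0.45. Slc2a2 went with Atp7b, a copper transporter (r = 0.90), and Ppara, the fatty acid receptor (r = 0.89), which were 0.78 and 0.68 within groups. Gckr went with Serpinc1, the gene of antithrombin (r = 0.90), Ambp (r = 0.89) and F2, the gene of prothrombin (r = 0.89), and Gys2 with Prdx6 (r = 0.88). Their r within groups was 0.84, 0.83, 0.86 and 0.88. Ugp2 went with Irf2bp2 (r = 0.91), Ppp1r3b with Smim10l1 (r = 0.80) and Pnpla3 (r = 0.77), and Pygl with Cmah (r = 0.74). Pklr went with Ttc39aos1 (r = 0.78), and within groups its r with the overlapping Hcn3 was 0.90. Pfkl went with Trarg1 (r = 0.96), which dropped to 0.32 without vehicle replicate 1. Among the members themselves, Pfkfb1 and Ugp2 ran opposite (r = -0.78), but within groups r was -0.03.

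The other genes of these pathways were counted from lists drawn up by function. Among all genes tested over the 24 livers, 36.8% were called at 22 h, 17.6% higher and 19.2% lower. The shares at 4 h were 44.2%, 21.7% and 22.5%. Counts in this list and in those below are to be read beside these shares. Whether any list differed from them was not tested. Of 23 tested glycolytic enzymes outside the 9, 1 rose and 8 fell at 22 h (median log2 fold change -0.06), and 6 rose and 4 fell at 4 h (median 0.06). These became 3 and 8 at 22 h (median 0.04) and 9 and 4 at 4 h (median 0.16) without vehicle replicate 1, so the median at 22 h turned sign. Tpi1, the triose phosphate isomerase, rose at both times, by 0.33 ± 0.05 at 22 h (limma-voom adjusted p = 7.12e-06) and 0.26 ± 0.05 at 4 h (adjusted p = 7.18e-05). Aldoc, an aldolase best known from brain, fell by 1.87 ± 0.19 at 22 h (limma-voom adjusted p = 5.39e-08), to 2.81 ± 0.78 CPM against 10.4 ± 2.9 CPM in vehicle livers. It fell by 1.33 ± 0.18 at 4 h (adjusted p = 9.48e-07).

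Of 15 tested genes that set fructose 2,6-bisphosphate and pyruvate dehydrogenase, 2 rose and 7 fell at 22 h (median log2 fold change -0.37), and 5 rose and 4 fell at 4 h (median -0.01). With vehicle replicate 1 left out, 2 rose and 5 fell at 22 h (median -0.22), and 6 rose and 4 fell at 4 h (median 0.06), where the median turned sign. Pfkfb2, the paralog of Pfkfb1 best known from heart, went opposite to it. Pfkfb2 averaged 114 ± 12.0 CPM at 22 h and 214 ± 29.7 CPM at 4 h, against 81.5 ± 9.2 CPM in vehicle livers, a log2 rise of 0.50 ± 0.08 (limma-voom adjusted p = 6.15e-05) and 1.40 ± 0.08 (adjusted p = 1.47e-12). Tigar, a fructose 2,6-bisphosphatase, rose by 0.28 ± 0.10 at 22 h (limma-voom adjusted p = 0.0232) and 0.85 ± 0.09 at 4 h (adjusted p = 4.38e-08). Pdk1, a kinase that inactivates pyruvate dehydrogenase, fell by 1.23 ± 0.08 at 22 h (limma-voom adjusted p = 1.54e-11) and 0.91 ± 0.08 at 4 h (adjusted p = 5.79e-10). Dlat, the acetyltransferase core of pyruvate dehydrogenase, fell by 0.71 ± 0.14 at 22 h (limma-voom adjusted p = 0.000487) and 0.55 ± 0.14 at 4 h (adjusted p = 0.00322). Its log2 changes were smaller without vehicle replicate 1, at -0.53 at 22 h (limma-voom adjusted p = 1.82e-07) and -0.37 at 4 h (adjusted p = 1.21e-05). Pdk4, a relative of Pdk1, was at 19.7 ± 10.5 CPM at 22 h and 99.4 ± 30.1 CPM at 4 h, against 14.9 to 503 CPM in vehicle livers, whose median was 35.2 CPM. Pdk4 rose at 4 h by 1.16 (limma-voom adjusted p = 0.0429), and by 1.75 without vehicle replicate 1 (adjusted p = 5.45e-06). At 22 h its log2 difference was -1.24 and not called (adjusted p = 0.0731), and -0.65 without that library (adjusted p = 0.0927).

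Of 9 tested glycogen enzymes, 1 rose and 5 fell at 22 h (median log2 fold change -0.42), and 1 rose and 3 fell at 4 h (median -0.39). Without vehicle replicate 1 the counts were 1 and 5 at 22 h (median -0.27) and 1 and 2 at 4 h (median -0.22). The 1 that rose was Gaa, the lysosomal enzyme that digests glycogen, by 0.18 ± 0.06 at 22 h (limma-voom adjusted p = 0.0187) and 0.16 ± 0.06 at 4 h (adjusted p = 0.0352). Subunits of phosphorylase kinase, which activates Pygl, also moved. Phka2, the liver alpha subunit, fell by 0.31 ± 0.07 at 22 h (limma-voom adjusted p = 0.00105) and 0.70 ± 0.07 at 4 h (adjusted p = 1.33e-08), with 35.5 ± 2.0 CPM at 22 h and 27.1 ± 2.2 CPM at 4 h, against 44.1 ± 5.2 CPM in vehicle livers. Phkb, the beta subunit, fell by 0.33 ± 0.06 at 22 h (limma-voom adjusted p = 0.000376) and 0.19 ± 0.06 at 4 h (adjusted p = 0.0188). Of 7 tested genes of glycogen phosphatase control, 1 rose and 3 fell at each time, with median log2 fold changes of -0.49 at 22 h and -0.52 at 4 h. In the fit without vehicle replicate 1, 2 fell at 22 h and 3 at 4 h. The 1 that rose was Ppp1cb, a catalytic subunit of protein phosphatase 1, by 0.09 ± 0.04 at 22 h (limma-voom adjusted p = 0.0488) and 0.27 ± 0.04 at 4 h (adjusted p = 1.75e-06). Ppp1r3e, another glycogen-targeting subunit, fell by 0.35 ± 0.09 at 22 h (limma-voom adjusted p = 0.00378) and 0.59 ± 0.09 at 4 h (adjusted p = 1.19e-05), as its relative Ppp1r3b did. Epm2a, the gene of the glycogen phosphatase laforin, fell by 0.89 ± 0.16 at 22 h (limma-voom adjusted p = 0.000165) and 0.58 ± 0.16 at 4 h (adjusted p = 0.00406), and Nhlrc1, the gene of its partner malin, by 0.49 ± 0.17 (adjusted p = 0.0315) and 0.52 ± 0.18 (adjusted p = 0.0197). The 22 h call of Nhlrc1 was lost without vehicle replicate 1 (limma-voom adjusted p = 0.0538). Of 7 tested sugar and monocarboxylate transporters, 2 rose at 22 h and 1 at 4 h, and none fell over all 24 livers. When vehicle replicate 1 was left out, 1 fell at 22 h. The median log2 fold change was -0.28 at 22 h and -0.05 at 4 h, and -0.29 and -0.12 without that library. Slc2a1, the widespread glucose transporter GLUT1, rose while Slc2a2 fell: 10.2 ± 1.3 CPM at 22 h and 16.5 ± 1.9 CPM at 4 h, against 8.20 ± 1.5 CPM in vehicle livers. The log2 rises were 0.33 ± 0.11 (limma-voom adjusted p = 0.0215) and 1.02 ± 0.10 (adjusted p = 1.18e-08). Genes on these lists without a row, such as Gbe1, Ppp1r3c and Mlxipl, are not analysed here.

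Of 6 tested enzymes that run the opposite way, toward glucose, 2 rose and 1 fell at 22 h (median log2 fold change 0.80), and 3 rose and 1 fell at 4 h (median 1.05). Without vehicle replicate 1, 3 rose and 1 fell at 22 h, and 4 rose and 2 fell at 4 h. Pck1, the phosphoenolpyruvate carboxykinase that bypasses the Pklr step, rose by 1.504 ± 0.192 at 22 h (limma-voom adjusted p = 1.5e-06) and 2.39 ± 0.20 at 4 h (adjusted p = 3.47e-10). Fbp1, the fructose bisphosphatase that opposes Pfkl, rose by 1.19 ± 0.08 at 22 h (limma-voom adjusted p = 1.82e-11) and 1.08 ± 0.08 at 4 h (adjusted p = 2.49e-11). G6pc, the glucose 6-phosphatase that releases free glucose, rose by 2.40 ± 0.31 at 4 h (limma-voom adjusted p = 6.41e-07), and at 22 h its log2 difference was 0.41 and not called (adjusted p = 0.297). Pcx, the pyruvate carboxylase that makes oxaloacetate for this route, fell by 0.66 ± 0.05 at 22 h (limma-voom adjusted p = 1.51e-09) and 0.65 ± 0.05 at 4 h (adjusted p = 4.57e-10). Of 16 tested clock genes, 6 rose and 5 fell at 4 h, with Arntl, a core clock activator, at 13.6 ± 3.4 CPM in 4 h livers against 2.88 ± 1.1 CPM in vehicle livers, and the part of clock time in the 4 h results was not tested. At 22 h, 4 clock genes rose and 5 fell. Of 9 tested regulators of carbohydrate genes, 4 rose and 3 fell at 22 h and 2 rose and 2 fell at 4 h. Hnf4a, a hepatocyte transcription factor, rose by 0.75 ± 0.08 at 22 h (limma-voom adjusted p = 1.18e-07), and Srebf1, a lipogenic factor responsive to insulin, fell by 0.89 ± 0.19 (adjusted p = 0.000965).

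**Figure D5:**
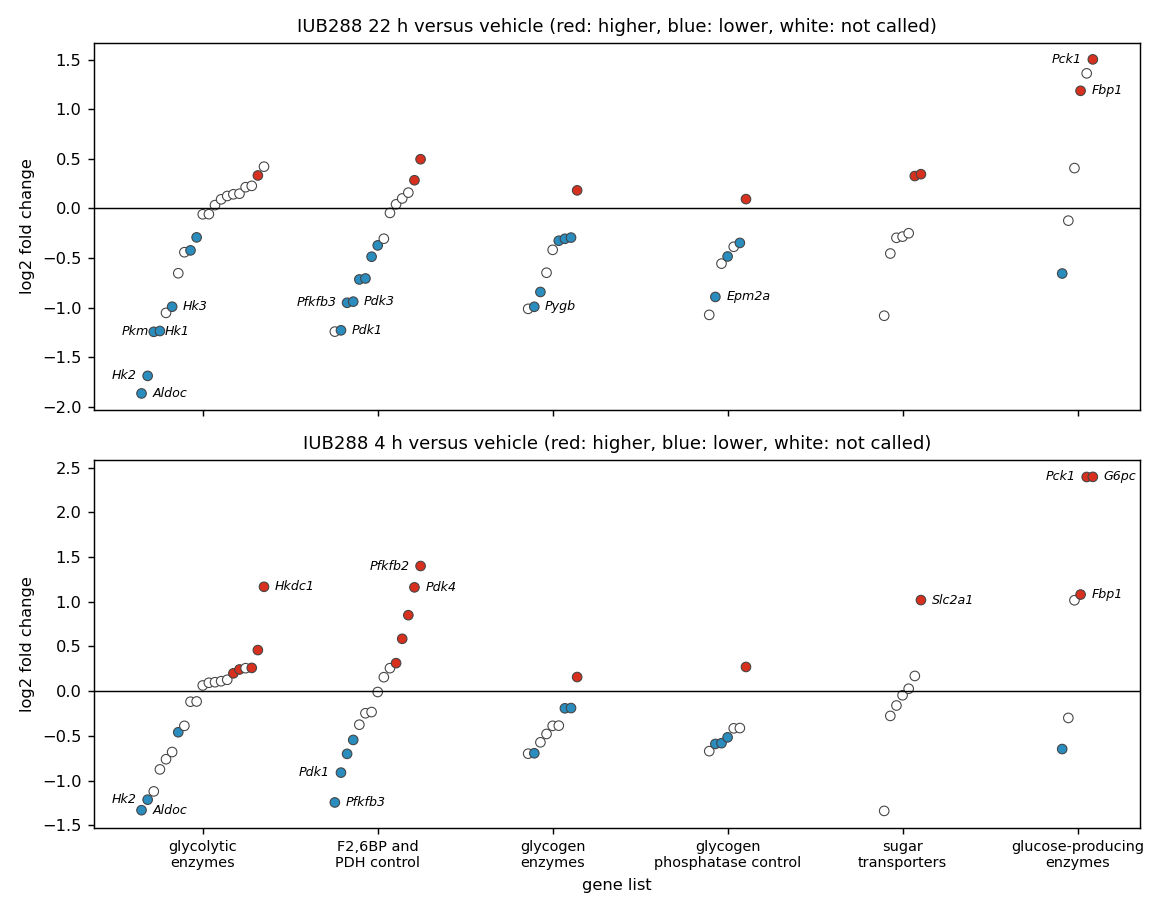
Log2 fold changes against vehicle (vertical axis) of tested genes in 6 lists outside the 9 genes, not all of them drawn, at 22 h above and 4 h below; each point is a gene, red where higher, blue where lower and white where not called, with the called genes past 0.85 named. Glucose-producing enzymes reach 2.40 at 4 h, while Aldoc stands lowest of the glycolytic enzymes drawn, at -1.87 at 22 h and -1.33 at 4 h.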

How the data were processed

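The authors deposited 1 table of raw counts per gene for 24 liver libraries. The submitters' processing notes name cutadapt, GSNAP and the build GRCm38. Versions, counting tool, annotation and strand setting are not stated there. Library totals were 13.99 to 44.07 M counts. The values are whole numbers, but the table's quoted layout was not readable to the unit check, so the planned edgeR test gave way to limma-voom on the deposited counts (limma 3.58.1, R 4.3.3). Genes passed with the CPM of 10 counts in a library of median size in at least 8 libraries and a total of at least 15, which kept 11508 genes and 99.92% of counts. TMM factors were computed in a script (trims 30% and 5%), with a voom offset of 0.5 and 1 coefficient per group over all 24 libraries. P-values were adjusted by Benjamini-Hochberg over all genes tested, with a threshold of 0.05, and all intervals are 95%. The procedure was run on simulated counts with the same dispersion for every gene and no library holding other tissue. That run does not cover these features of the data. Each p-value weighs a difference between group means against the spread between mice. That spread was pooled over all 3 groups (21 residual degrees of freedom) and moderated across genes. Of 21896 RefSeq protein-coding genes, 11716 had a row, and the others were not analysed here. The Entrez numbers of 7243 of the 21896 sort, as text, after the last number in the deposited counts, so these had no row. Why was not tested. Library totals, CPM and shares of all genes therefore cover only genes with a row. Members and gene lists were chosen with earlier results of these data known. Beyond the 9 genes, the rule for names took from each pathway list the 3 genes with the smallest p per comparison at a mean of at least 1 CPM, plus Pck1, G6pc, Fbp1, Pdk4, Srebf1 and others; the text gives some of these, and a few are not reported here. Hcn3, Pkm and Hk2 were picked after their values were seen. Motifs were searched in RefSeq windows on GRCm38.p6.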

Additional observations from a re-analysis of the deposited data

Results flagged for a closer look

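Of 27 sets of 8 livers, 1 per gene and group, 5 held a liver whose gap to its neighbour was wide for the range of its group, where chance flags about 1 set in 20. Vehicle replicate 1, the library with fat and muscle markers, was 3 of these: it was lowest for Gckr at 132 CPM, lowest for Ugp2 at 888 CPM and highest for Pfkl at 189 CPM. The other flagged livers were 22 h replicate 7, highest for Gckr at 293 CPM, and 4 h replicate 4, lowest for Pklr at 296 CPM. The part of these single livers in the group means was not tested beyond leaving each out.

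The change against vehicle differed between 22 h and 4 h for 2 genes, by the limma-voom test of 22 h against 4 h livers. Pfkfb1 stood 0.62 higher at 22 h on the log2 scale, and Ugp2 differed by -0.29.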

How the results depend on the processing

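Among values recomputed under alternatives other than leaving out a library, 304 kept direction and side of the threshold, 6 passed it newly, 10 lost it and 4 turned sign; with 1 library left out the counts were 637, 6, 2 and 3. Livers 1 to 12 alone gave 1229 genes called at 22 h against vehicle, where all livers gave 4237, 2908 at 4 h, where all gave 5091, and 1473 at 22 h against 4 h, where all gave 3367; called members were 3 of 6 and 0 of 2 for the comparisons involving 22 h. Livers 13 to 24 alone, also 4 a group, gave 3240 genes at 22 h, 3166 at 4 h and 2514 between the times. Livers 1 to 12 include vehicle replicate 1. The cause of their lower counts at 22 h and between the times was not tested. At 22 h against 4 h, uncalled changes turned sign: in livers 1 to 12 alone Gckr to -0.0656, Pklr to 0.0621 and Ppp1r3b to -0.28, and with sample quality weights Gys2 to -0.004. With 1 library left out, Gckr ran between -0.0131 and 0.067 and Gys2 between -0.0218 and 0.0862. Pklr at 4 h was called with the stricter filter (limma-voom adjusted p = 0.0493), with quality weights (0.0434), with the 16 libraries of the comparison (0.043) and without 22 h replicate 4 (0.048), and at 22 h its call was lost with no filter (0.0609). Gys2 was called with library totals alone at 22 h (0.0441) and with 16 libraries at 4 h (0.0402), and Pygl between the times with quality weights (0.0297). Leaving out 1 library gave 3846 to 4281 genes and 6 to 7 members at 22 h, 4743 to 5253 and 5 to 6 at 4 h, and 3081 to 3724 and 2 between the times. Replicate numbers showed no clear pairing of the samples (r of same-numbered deviations from -0.22 to 0.13). The same number was the best match in 3 of 8 pairs at 4 h against vehicle. It was so in 0 of 8 at 22 h against vehicle and 2 of 8 between the times. With 8 pairs a comparison, a weak pairing could be missed. With a replicate block, 4388, 5425 and 3433 genes were called, and 6, 5 and 2 members. Robust empirical Bayes, quality weights, limma-trend and the interaction with liver number were chosen after seeing the data. The planned edgeR and DESeq2 fits were not run. The fewest counts of a member in a library were 429, for Pfkl.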
